A study of Arabidopsis thaliana with 10 samples.

Results

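Among the transcripts of young Arabidopsis thaliana seedlings, 20 probe sets set the phyA mutant apart from both other genotypes studied, of 13644 that passed a filter on level and 22810 on the array. They were chosen by their measured levels on a log2 scale, log2(value + 16). Both phyA arrays had to lie at least 0.5 log2 units below, or both at least 0.5 above, every one of the 8 other arrays, and the mean over the 10 arrays had to be above the level of a value of 24.8. The lower set held 6 probe sets (0.044% of those past the filter) and the higher set 14 (0.103%). Since these values made the choice, every difference between phyA and the other genotypes given below is a description without a test.

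Seedlings were profiled on Affymetrix ATH1 arrays, with 300 seedlings pooled for each array and kept at 22 °C. phyA_FR (the phyA-null mutant after far-red light) and phyA_D (the same mutant not given far-red light) had 1 array each, gun1gun5_FR and gun1gun5_D (the gun1,gun5 double mutant) had 2 each, and WT_FR and WT_D (wild type Col-0) had 2 each. All groups went on to white light after the pretreatment, and the labels leave the letter D unexplained. The labels list no sucrose for phyA, gun1gun5 and WT_FR, and 1.5% sucrose for both WT_D samples, with 5 µM norflurazon, an inhibitor of carotenoid synthesis, in WT_D replicate 2. They name a background line, Col-0, for WT alone, so the phyA mutation and the background of the phyA line cannot be told apart.

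Phytochrome A is the photoreceptor through which seedlings sense continuous far-red light. It accumulates in darkness, moves into the nucleus after far-red light and changes the transcription of many genes there, with FHY1 and FHL as its import partners and HY5 and HYH among the transcription factors downstream. GUN1 and GUN5 are needed for chloroplasts to signal their state to the nucleus, and GUN5 is also a subunit of magnesium chelatase in chlorophyll synthesis.

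The probe annotation covered few of the members. Of the 20, 5 were listed with 1 gene (2 lower, 3 higher), 1 with several genes, and 14 were not listed with a gene (70.0%, against 43.9% of all probe sets past the filter). These 14 are given by their probe set identifiers. No listed probe set belonged to PHYA, GUN1 or GUN5, so the mutated genes themselves were not checked here. Whether any of the unlisted probe sets measures one of them is not known from the tables used.

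The arrays were of similar brightness, with medians of 39.8 and 39.0 in phyA_FR and phyA_D, 35.6 to 38.6 in gun1gun5 and 36.9 to 40.4 in WT. The 2 phyA arrays correlated at a Spearman's rho of 0.980, and phyA_D correlated with WT_D replicate 2 at 0.980 as well. RNA quality controls stood apart on the phyA arrays too: the ratio of the 3′ to the 5′ actin control probe set was 3.65 in phyA_FR and 4.25 in phyA_D, against 1.58 to 3.59 on the other 8 arrays. For GAPDH that ratio was 1.67 and 1.34, against 0.925 to 1.26, and for ubiquitin 2.20 and 2.31, against 1.60 to 2.07. In the second set of such controls on the array, the actin ratio was 1.92 and 1.76 in phyA_FR and phyA_D, against 1.3 to 1.58 elsewhere. The GAPDH ratio there was 1.17 and 1.06, against 0.868 to 1.05. For ubiquitin it was 1.75 in phyA_FR and 1.50 in phyA_D, against 1.27 to 1.52, so that phyA_D alone was within the range of the others. The part of these ratios in the levels below was not tested. Leaf markers were high on all arrays, the photosystem II antenna gene LHCB4.1 reading 3798.6 in phyA_FR, 3443.6 in phyA_D and 2583.0 to 3960.1 elsewhere. The root gene PYK10, a glucosidase of the ER bodies, read 3127.7 and 3268.7 in phyA_FR and phyA_D and 2150.1 to 3135.4 elsewhere. The other root marker measured, the root-hair expansin EXPA7, read 38.1 and 28 in phyA_FR and phyA_D and 31.7 to 49.2 elsewhere. In such whole-seedling pools, fewer cells of a type and less RNA per cell cannot be told apart.

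The lower set was led by 264508_at, which gave almost no signal in phyA. It read 1.40 in phyA_FR and 1.40 in phyA_D, against 248.1 and 259.8 in gun1gun5_FR, 292.5 and 271.5 in gun1gun5_D, 241.2 and 174.5 in WT_FR, and 220.8 and 199.3 in WT_D. The phyA arrays were both far under 16 and none of the other 8 was, so the level was at least 14.9-fold lower in phyA, taking 16 as the floor. Its gap of 3.45 log2 units between the nearest arrays was the widest of the 20 members, and the next in the lower set was 0.82. This probe set is not listed with a gene in the annotation used, so whether it measures the mutated gene or another one is not known here.

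The other members of the lower set without a named gene kept a signal in phyA. 256118_at read 26.9 and 26.4 in phyA_FR and phyA_D, against 66.7 and 60.5 in gun1gun5_FR, 59.6 and 60 in gun1gun5_D, 70.6 and 59.6 in WT_FR, and 67.0 and 62.8 in WT_D, a 1.86-fold lower mean level on the log2(value + 16) scale. Its 8 other arrays were close together whatever the pretreatment. 245325_at read 59.8 and 57.7 in phyA_FR and phyA_D, against 433.3 and 300.2 in gun1gun5_FR, 127.0 and 148.2 in gun1gun5_D, 316.7 and 139.1 in WT_FR, and 157.5 and 115.4 in WT_D (2.82-fold lower in phyA). Here the gun1gun5_FR arrays were above both gun1gun5_D arrays, and WT_FR replicate 1 was well above WT_FR replicate 2. 258125_s_at, which matches 2 genes and is therefore unnamed, read 30.5 in phyA_FR and 62.5 in phyA_D, against 192.3 and 200.2 in gun1gun5_FR, 110.7 and 165.5 in gun1gun5_D, 200.1 and 113.5 in WT_FR, and 191.9 and 157.8 in WT_D (2.96-fold lower). It was the member whose 2 phyA arrays differed most.

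The members with a named gene in the lower set were about evenly low with and without far-red light in phyA. AT5G01010 on chromosome 5 (245862_at) read 101.0 in phyA_FR and 105.2 in phyA_D, against 262.7 and 256.6 in gun1gun5_FR, 166.6 and 184.9 in gun1gun5_D, 267.9 and 257.6 in WT_FR, and 204.4 and 186.1 in WT_D (1.98-fold lower). The FR arrays of both other genotypes were above their D arrays. AT2G07360 on chromosome 2 (265779_at), which encodes TASH3, a subunit of the TPLATE complex of endocytosis, read 38.3 and 34.5 in phyA_FR and phyA_D. It read 76.5 and 78.4 in gun1gun5_FR, 62.8 and 74.8 in gun1gun5_D, 69.9 and 60.9 in WT_FR, and 70.4 and 66.1 in WT_D (1.64-fold lower in phyA). It had the narrowest gap of the set, at 0.50. The other probe set of AT2G07360, 265778_at, did not set phyA apart: it read 279.9 and 259.2 in phyA_FR and phyA_D, against 266.6 to 344.9 elsewhere, a log2 difference of -0.16. The 2 probe sets of this gene therefore disagree on whether phyA lies below the others.

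**Figure D1:**
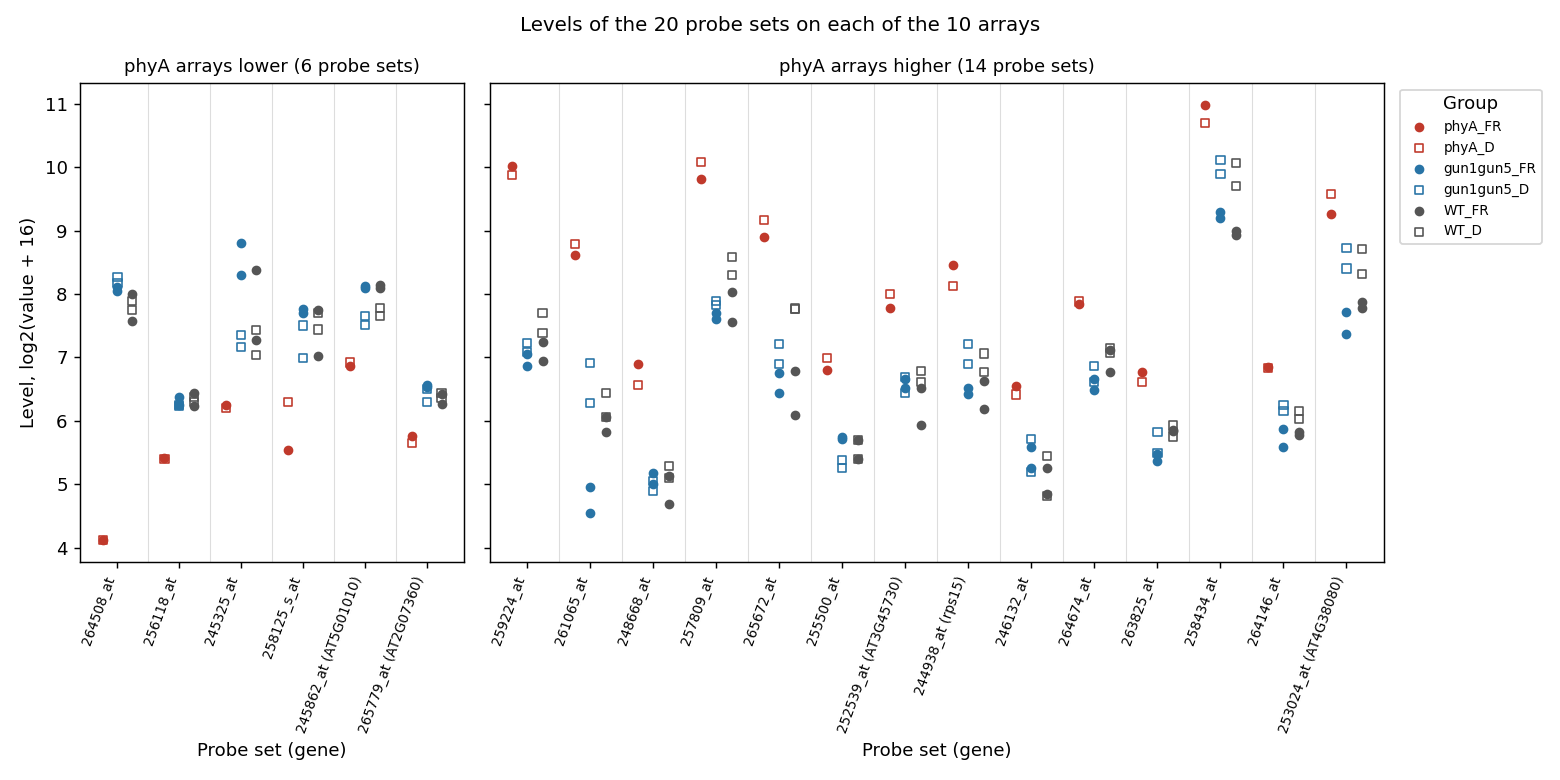
Level of each of the 20 probe sets on each array, as log2(value + 16), with the lower set on the left panel and the higher set on the right, 1 point per array (red phyA, blue gun1gun5, grey WT; filled circles FR, open squares D). Both phyA points lie outside the range of the other 8 by at least 0.5 for every probe set, as the rule demands, and by 3.45 for 264508_at.

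The higher set was led by 259224_at and 261065_at, with gaps of 2.17 and 1.70 log2 units. 259224_at read 1023.5 and 923.3 in phyA_FR and phyA_D, against 100.4 and 116.4 in gun1gun5_FR, 133.8 and 119.6 in gun1gun5_D, 106.6 and 136.1 in WT_FR, and 151.6 and 192.1 in WT_D (6.78-fold higher in phyA on the log2(value + 16) scale). 261065_at read 374.7 and 428.0 in phyA_FR and phyA_D, against 7.5 and 15 in gun1gun5_FR, 61.7 and 104.0 in gun1gun5_D, 40.8 and 50.7 in WT_FR, and 71.2 and 50.8 in WT_D (7.04-fold higher). The gun1gun5_FR arrays were the lowest of all for 261065_at, both under 16, and the phyA arrays were far above every other array for both probe sets.

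Another 4 unlisted members also had gaps above 1 log2 unit. 257809_at read 878.8 and 1067.0 in phyA_FR and phyA_D, against 178.8 and 191.0 in gun1gun5_FR, 212.0 and 220.1 in gun1gun5_D, 173.4 and 245.1 in WT_FR, and 299.6 and 368.8 in WT_D (4.02-fold higher). 265672_at read 462.2 and 555.8 in phyA_FR and phyA_D, against 91.5 and 70.6 in gun1gun5_FR, 132.6 and 103.3 in gun1gun5_D, 52.6 and 94.4 in WT_FR, and 202.5 and 200.5 in WT_D (4.19-fold higher). In both of these WT_D came nearest to phyA. 248668_at read 102.8 and 79.1 in phyA_FR and phyA_D and between 9.90 and 23.3 on the other 8 arrays, 2 of which were under 16. 255500_at read 95.5 and 111.4 in phyA_FR and phyA_D and between 22.1 and 37.4 on the others, with the gun1gun5_FR arrays nearest to phyA.

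The named genes of the higher set were rps15, AT3G45730 and AT4G38080. rps15 (244938_at), the plastid gene for protein S15 of the small subunit of the chloroplast ribosome, read 335.3 in phyA_FR and 262.9 in phyA_D. It read 75.2 and 70.2 in gun1gun5_FR, 102.6 and 132.2 in gun1gun5_D, 57.1 and 82.7 in WT_FR, and 93.4 and 117.7 in WT_D (2.99-fold higher in phyA). Within gun1gun5 both D arrays were above both FR arrays, and so they were within WT. AT3G45730 on chromosome 3 (252539_at) read 203.8 and 239.1 in phyA_FR and phyA_D, against 75.4 and 85.3 in gun1gun5_FR, 87.2 and 70.8 in gun1gun5_D, 76.2 and 45.5 in WT_FR, and 81.6 and 94.9 in WT_D (2.58-fold higher). AT4G38080 on chromosome 4 (253024_at) read 594.7 and 744.1 in phyA_FR and phyA_D, against 193.4 and 148.7 in gun1gun5_FR, 406.7 and 322.4 in gun1gun5_D, 218.5 and 202.8 in WT_FR, and 404.4 and 304.0 in WT_D (2.46-fold higher). AT4G38080 had the narrowest gap of the higher set, at 0.53, and its D arrays lay well above its FR arrays in both other genotypes.

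Of the remaining members of the higher set, 258434_at showed the same order: 2010.7 and 1645.0 in phyA_FR and phyA_D, against 568.5 and 611.6 in gun1gun5_FR, 930.3 and 1088.0 in gun1gun5_D, 495.4 and 472.0 in WT_FR, and 1055.8 and 812.9 in WT_D (2.50-fold higher). 264146_at read 98.9 and 98.6 in phyA_FR and phyA_D, against 32.2 and 42.5 in gun1gun5_FR, 55.2 and 60.2 in gun1gun5_D, 40.5 and 38.8 in WT_FR, and 49.6 and 55.2 in WT_D (1.85-fold higher). Both had D above FR in gun1gun5 and in WT without overlap. 264674_at read 212.7 and 220.0 in phyA_FR and phyA_D and from 73.7 to 125.7 elsewhere, 263825_at read 93.0 and 81.7 in phyA and from 25.3 to 44.9 elsewhere, and 246132_at read 77.9 and 69.4 in phyA and from 12.1 to 36.3 elsewhere. For 13 of the 14 members the array nearest to phyA was a D array, 7 times of WT and 6 times of gun1gun5, and for 255500_at it was gun1gun5_FR replicate 1. In the lower set the nearest array was a D array for 4 of 6 members. The values that made the choice gave these counts, and no share over all probe sets was taken. Over all probe sets phyA_D correlated at a Spearman's rho of 0.975 and 0.980 with WT_D, and of 0.9471 and 0.9465 with WT_FR. With gun1gun5_D the rho was 0.9633 and 0.9704, and with gun1gun5_FR it was 0.9455 and 0.9482.

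With the pretreatment matched, the members differed in the same direction in FR and in D. In the lower set the median over the 6 members was -1.71 log2 units for phyA_FR minus gun1gun5_FR (range -3.96 to -0.78) and -0.89 for phyA_D minus gun1gun5_D (-4.10 to -0.66). Against WT the medians were -1.42 for phyA_FR minus WT_FR and -0.98 for phyA_D minus WT_D. In the higher set the median over the 14 members was 1.73 for phyA_FR minus gun1gun5_FR and 1.29 for phyA_D minus gun1gun5_D. Against WT it was 1.76 for phyA_FR minus WT_FR and 1.29 for phyA_D minus WT_D. The directions follow from the rule. Over all probe sets past the filter, the mean of the phyA arrays minus that of the other 8 had a median of 0.00 (-0.0018), and it was 0.5 or more in size for 8.26%.

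The threshold cut through a continuous range. Just inside it in the lower set were AT2G07360 (gap 0.50), AT5G01010 (0.59) and 258125_s_at (0.69). Just outside were AT1G12010, an ACC oxidase of ethylene synthesis (0.49), 245866_s_at (0.49) and 258525_at (0.48). AT1G12010 read 33.1 and 34.6 in phyA, against 55.2 to 271.4 elsewhere. Just inside in the higher set were AT4G38080 (0.53), 264146_at (0.59) and 258434_at (0.59), and just outside were SNF7.2, a subunit of the ESCRT-III complex of endosomes (0.49), 255872_at (0.48) and AT1G28400 (0.46). SNF7.2 read 182.8 and 200.1 in phyA, against 82.7 to 125.5 elsewhere. Another 9 probe sets had a gap of at least 0.5 with phyA higher but fell under the filter on level, and 0 did so with phyA lower. The mean behind the filter takes in all 10 arrays, of which a lower member is high on 8 and a higher member on 2.

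By the same filter and gap, 48 probe sets set gun1gun5 apart (36 lower, 12 higher) and 19 set WT apart (1 lower, 18 higher). Those counts rest on 4 arrays against 6, and that of phyA on 2 against 8, so they are not on one scale.

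The members did not lie together in the genome as far as their genes are named. The 4 nuclear genes were on chromosomes 2, 3, 4 and 5, and rps15 is in the plastid genome. Gene order was taken from RefSeq (assembly TAIR10.1), looking at 10 genes on each side. Around AT5G01010, the 4 named probe sets past the filter differed between phyA and the others by -0.43 to 0.21 log2 units, among them AT5G01015 next to it at 0.01. Around AT3G45730 the 5 such probe sets lay between -0.42 and 0.21, and around AT4G38080 the 6 lay between -0.31 and 0.11. None of these was a member. No neighbouring gene of AT2G07360 had a named probe set past the filter within that distance. Around PHYA itself, on chromosome 1, the 4 named probe sets past the filter lay between -0.52 (AT1G09575, the next gene) and 0.85 (AT1G09500), and 0 of them were members.

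rps15 was a member while its neighbours in the plastid genome were not. The nearest named gene, ndhH, a subunit of the plastid NDH complex, read 91.5 and 95.4 in phyA_FR and phyA_D, against 102.6 and 73.1 in gun1gun5_FR, 102.5 and 163.2 in gun1gun5_D, 62.8 and 60.1 in WT_FR, and 77.8 and 98.1 in WT_D. The phyA arrays of ndhH lay within the range of the others. The 9 neighbours with a named probe set all lay on one side of rps15. Among them ndhG had the largest difference between phyA and the others, at 0.56 log2 units, and psaC, an iron-sulphur subunit of photosystem I, had the smallest, at 0.02, against 1.58 for rps15. For ccsA and rpl32 both phyA arrays lay above all others, with gaps of 0.22 and 0.08 that missed the threshold. Of 69 plastid probe sets past the filter, 61 had a higher mean on the phyA arrays than on the others, FR and D together. Their median difference was 0.32, against -0.0018 over all probe sets, for which the share with a higher mean was not taken. This was not particular to phyA for every gene. For psaC, ndhE, ndhI, ndhA and ndhH both gun1gun5_D arrays read above both phyA arrays, unlike for the other named neighbours of rps15. psaC read 1094.7 and 1385.8 in gun1gun5_D, against 1026.8 in phyA_FR and 901.2 in phyA_D. The highest difference among the 69 was that of rps15, followed by rpl14 (1.38), rpl20 (1.15) and rpl16 (1.03). These 3 encode proteins of the large subunit of the plastid ribosome and were picked out after their values were seen. rpl14 read 1008.8 and 944.2 in phyA_FR and phyA_D, against 206.8 to 705.0 elsewhere, a gap of 0.41 that missed the threshold. The 25S rRNA control probe set read 2090.2 and 2444.9 on the phyA arrays, within the range of 314.8 to 3003.8 on the other arrays. Labelling started from an oligo(dT) primer, per the labels' protocols.

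**Figure D2:**
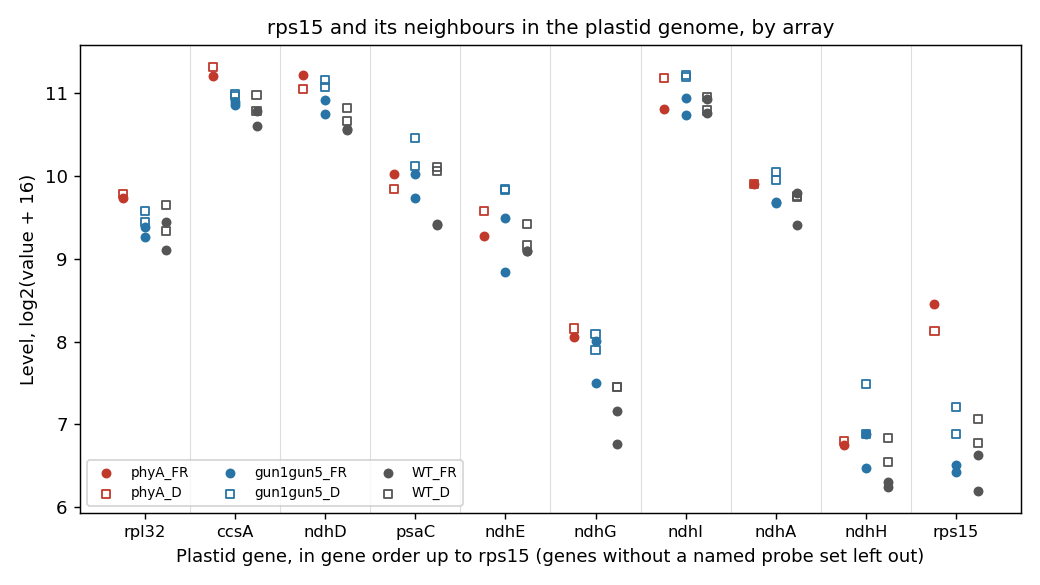
Levels of rps15 and of its named neighbours in plastid gene order, as log2(value + 16) on each of the 10 arrays (red phyA, blue gun1gun5, grey WT; filled circles FR, open squares D). The phyA points of rps15 lie above all others, while those of ndhH, next to it, lie within the range of the others.

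Far-red responses within a genotype were not what the rule selected on, and they were tested with limma across all 13644 probe sets, with p-values adjusted by Benjamini and Hochberg's method and a threshold of 0.05. The first of these comparisons asked whether the members respond to far-red pretreatment where phyA is missing. In phyA, 0 of the 6 lower and 0 of the 14 higher members passed for phyA_FR minus phyA_D, and 0 of all probe sets did (0%). At an unadjusted p under 0.05 there were 699 probe sets in all (5.12%), 1 lower member among them (258125_s_at, -0.76 ± 0.33, SE, limma adjusted p = 0.961) and 0 higher members. The log2 differences ran from -0.76 to 0.10 in the lower set and from -0.32 to 0.33 in the higher set. Each phyA group has 1 array, whose spread was taken from gun1gun5 and WT, and the demand that both lie on one side of the others limits how far they can differ.

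In gun1gun5, where the labels list the same medium for FR and D, 4 of the 14 higher members fell after far-red light and 0 rose, against 8.06% of all probe sets that fell. 261065_at fell most, with a log2 difference of -1.84 ± 0.22 (SE, n = 2 arrays per group, limma adjusted p = 0.000768). With gun1gun5_FR under 16 its size rests on the pseudocount: it was -2.80 with a pseudocount of 1 and -0.95 with 64. AT4G38080 (-1.03 ± 0.18, limma adjusted p = 0.00504), 258434_at (-0.76 ± 0.14, limma adjusted p = 0.00692) and 264146_at (-0.47 ± 0.13, limma adjusted p = 0.0409) fell as well. rps15 had a difference of -0.58 ± 0.18 and did not pass (limma adjusted p = 0.0525). The median over the 14 was -0.22, against 0.00 (-0.0047) over all probe sets. The 14 take in 248668_at and 246132_at, which passed the filter only through phyA and lay low on the arrays compared here.

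In the lower set 2 of 6 members rose after far-red light in gun1gun5 and 0 fell, against 6.38% of all probe sets that rose. 245325_at rose by 1.3 ± 0.31 (limma adjusted p = 0.0196) and AT5G01010 by 0.53 ± 0.12 (limma adjusted p = 0.0182), and the median over the 6 was 0.31. Single arrays decided several of these calls. The call on AT5G01010 ended without gun1gun5_FR replicate 1 (0.51) or 2 (0.54), or gun1gun5_D replicate 1 (0.46) or 2 (0.59). That on 245325_at ended without gun1gun5_FR replicate 1 (1.05), gun1gun5_D replicate 1 (1.20) or gun1gun5_D replicate 2 (1.40), and with no filter. That on 264146_at ended without any 1 of the 4 gun1gun5 arrays (-0.33 to -0.61) or WT_D replicate 2 (-0.47), after quantile normalization (-0.43), with no filter and in a fit of the compared groups alone (-0.47 each), and its difference was -0.27 with a pseudocount of 64. The call on 258434_at ended without gun1gun5_FR replicate 1 (-0.70) or gun1gun5_D replicate 2 (-0.64), and that on AT4G38080 without gun1gun5_FR replicate 2 (-0.85).

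In WT, 4 of the 14 higher members fell after far-red light and 0 rose, against 12.7% of all probe sets that fell. They were 265672_at (-1.32 ± 0.21, SE, n = 2 arrays per group, limma adjusted p = 0.00188), 258434_at (-0.92 ± 0.14, limma adjusted p = 0.00139), AT4G38080 (-0.70 ± 0.18, limma adjusted p = 0.0185) and 257809_at (-0.65 ± 0.17, limma adjusted p = 0.0188). Of these 258434_at and AT4G38080 were also called in gun1gun5. rps15 had a difference of -0.51 ± 0.18 (limma adjusted p = 0.0634) and AT3G45730 one of -0.47 ± 0.19 (limma adjusted p = 0.101). The median over the 14 was -0.38, against -0.01 over all probe sets. Here too the 14 take in 248668_at and 246132_at, which passed the filter only through phyA.

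In the lower set AT5G01010 alone passed in WT, rising by 0.40 ± 0.12 (limma adjusted p = 0.0389), 1 of 6 members against 9.73% of all probe sets that rose. This call ended without any 1 array of WT_FR or WT_D (0.34 to 0.46), without gun1gun5_FR replicate 1 or 2, and in a fit of the compared groups alone (0.40 each). Sucrose, and in 1 array norflurazon, differ along with the pretreatment in this comparison. The call on 257809_at ended without WT_FR replicate 1 (-0.42) or WT_D replicate 2, the norflurazon array (-0.51), and in a fit of the compared groups alone (-0.65), and that on AT4G38080 without WT_FR replicate 2 (-0.65) or WT_D replicate 1 (-0.50).

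**Figure D3:**
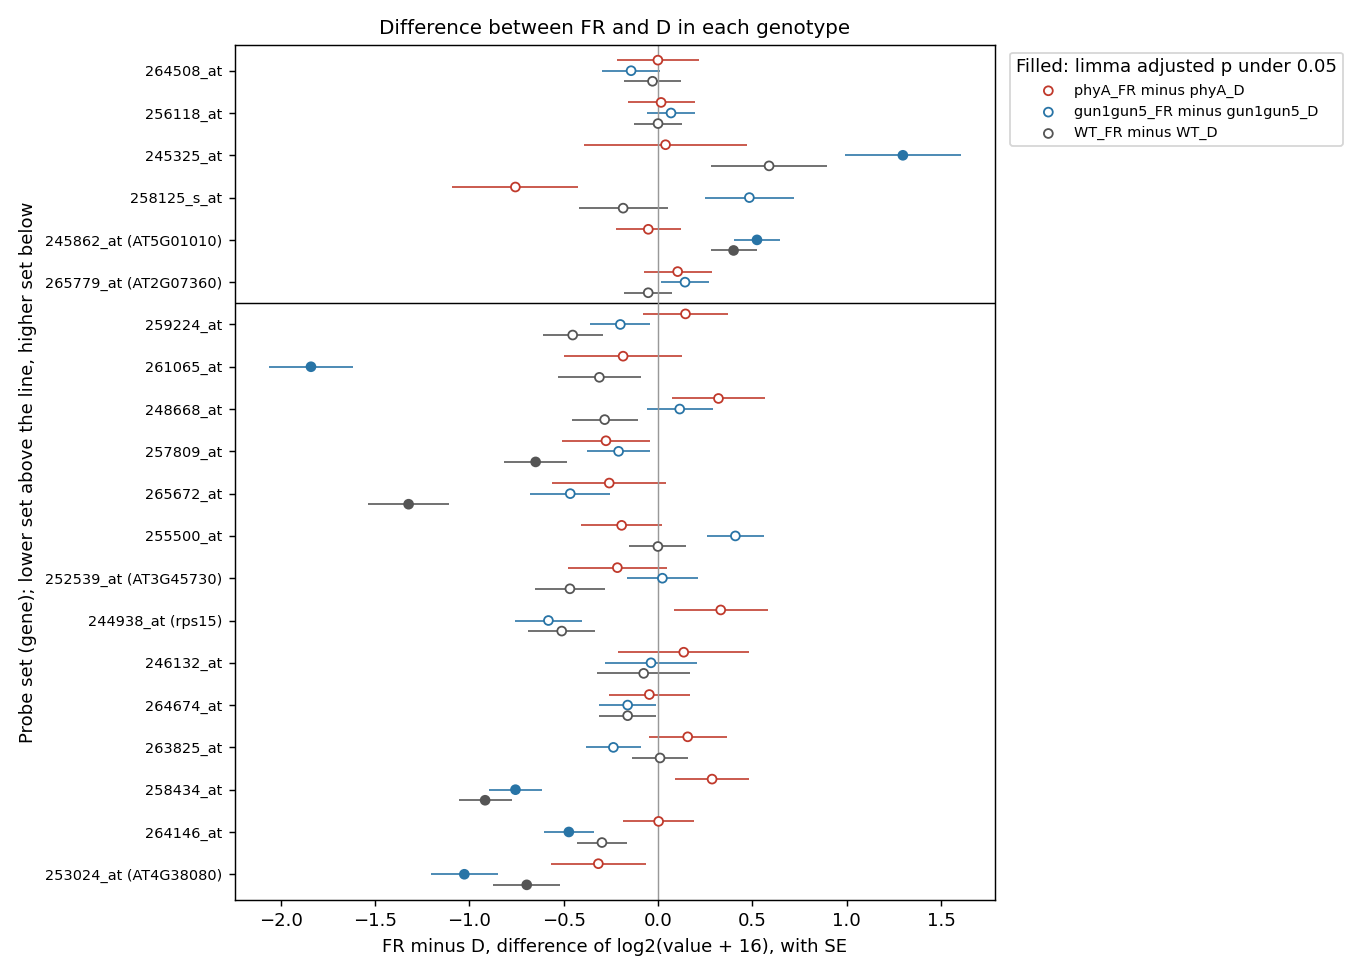
Difference between FR and D for each of the 20 members in phyA (red), gun1gun5 (blue) and WT (grey), as a difference of log2(value + 16) with its SE from limma, filled where the adjusted p was under 0.05. No phyA point is filled, AT5G01010 is filled to the right of 0 in gun1gun5 and WT, and 258434_at and AT4G38080 are filled to the left in both.

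Whether a response differed between genotypes was tested as a difference of differences. The response of phyA minus that of gun1gun5 passed for 0 of 6 lower and 0 of 14 higher members in limma, against 0.528% of all probe sets (0.454% higher, 0.0733% lower). At an unadjusted p under 0.05 it did so for 3 lower and 5 higher members, against 12.6% of all probe sets. The phyA and gun1gun5 values compared here also made the choice, so this comparison is only partly free of the rule. The member counts therefore cannot be read against the share over all probe sets. The largest differences in size were 1.65 ± 0.38 for 261065_at and 1.04 ± 0.24 for 258434_at (limma adjusted p = 0.113 for each), and -1.26 ± 0.53 for 245325_at (limma adjusted p = 0.363) and -1.24 ± 0.41 for 258125_s_at (limma adjusted p = 0.253). Without gun1gun5_D replicate 1, 1 higher member passed, against 0.77% of all probe sets in that fit. The absence of a call in phyA therefore does not show that phyA responds less for these members.

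The response of gun1gun5 minus that of WT passed for 261065_at alone, 1 of 14 higher members and 0 of 6 lower ones, against 2.82% of all probe sets (0.792% higher, 2.03% lower). Its value was -1.53 ± 0.31 (SE, n = 2 arrays in each of 4 groups, limma adjusted p = 0.0307). The WT response taken off here holds the difference in sucrose, and in 1 array norflurazon, so the pretreatment and the medium cannot be told apart in it, and the call ended without that array, WT_D replicate 2 (-1.34). After far-red light itself, gun1gun5_FR minus WT_FR passed for 261065_at (-1.19 ± 0.22, limma adjusted p = 0.00478), 1 of 14 higher and 0 of 6 lower members, against 20.2% of all probe sets (9.81% higher, 10.4% lower). That call ended without gun1gun5_FR replicate 1 (-0.99), and the difference was -2.0 with a pseudocount of 1 and -0.54 with 64. Without WT_FR replicate 1, 3 lower and 2 higher members passed, against 18.6% of all probe sets in that fit. In limma at an unadjusted p under 0.05, 1 lower and 3 higher members differed between gun1gun5_FR and WT_FR, against 34.0% of all probe sets. The rule asked every WT and gun1gun5 array to lie on one side of phyA, so the values compared here also bounded the choice. The higher set also takes in 248668_at and 246132_at, which passed the filter only through phyA. The member counts in both of these comparisons therefore cannot be read against the shares over all probe sets.

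Known components of phyA signalling were hardly covered by the named probe sets. Of 36 genes on a list of phyA and far-red signalling, 2 had a named probe set, both past the filter, and 0 were members. FHL, which carries phyA into the nucleus together with FHY1, read 28.5 and 25 in phyA_FR and phyA_D, against 23.8 and 39.1 in gun1gun5_FR, 30.3 and 34.7 in gun1gun5_D, 22.0 and 29.6 in WT_FR, and 20.2 and 24.9 in WT_D. HYH, a transcription factor close to HY5, read 141.2 in phyA_FR and 225.9 in phyA_D, against 137.6 and 157.3 in gun1gun5_FR, 120.2 and 217.7 in gun1gun5_D, 156.3 and 125.7 in WT_FR, and 149.7 and 179.6 in WT_D. The phyA arrays of FHL lay within the range of the others, and that of HYH in phyA_D was the highest of the 10. In limma 0 of the 2 rose and 0 fell after far-red light in any genotype, and 0 did at an unadjusted p under 0.05. The largest of these differences was that of HYH for phyA_FR minus phyA_D, at -0.62 ± 0.32 (SE, limma adjusted p = 0.963).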

How the data were processed

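Labelled RNA from 10 pools was measured on 1-colour arrays. The deposited values are linear intensities per probe set, which the authors scaled to a mean of about 100 (without the lowest and highest 2% of values), as the values show. The software that made them is not given in the sources used here. Values were taken as log2(value + 16), and no normalization between arrays was added. Groups come from the sample names. The members and lists were chosen with earlier results of these data known.

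Means of the 6 groups were compared with limma 3.58.1 (R 4.3.3) over the 13644 non-control probe sets past the level filter (4 residual and 6.30 prior degrees of freedom, variances following a trend with level). All tests were two-sided. Errors are SE of log2 differences, and p-values measure the spread between these arrays, which may be technical. In simulated data 200 of 13644 probe sets were changed by 1 log2 unit. These changes were recovered at 100% in the WT contrast, 100% in gun1gun5 and 93% in phyA. Of the calls made, 6.10%, 3.38% and 6.53% were false. The simulated spread depended on level alone, so these shares do not cover probe sets with a larger spread of their own. For phyA_FR minus phyA_D the SE was 0.43 for 245325_at and 0.33 for 258125_s_at. The number of arrays limits precision.

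Genes were named from the platform table and RefSeq (TAIR10.1): 13513 probe sets had 1 gene, 503 several and 8730 none listed. The naming rule took, from the members with 1 gene, the widest gaps in each set, members of the fixed lists and of keyword families, called members and those near the threshold. It covered all 5, and the other members are given by identifier. No keyword family held 3 members. That search saw only the symbols and synonyms of the 5 named genes, not their products, and missed rps15 under ribosomal protein, so it says little about families. Promoter motifs and sequences were not analysed here. Alternatives were other pseudocounts, quantile normalization, other filters and gaps, no variance trend, the compared groups alone, a replicate block and leaving out each array.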

Additional observations from a re-analysis of the deposited data

Results flagged for a closer look

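For 261065_at the difference between FR and D differed between gun1gun5 and WT by a test of that difference itself: the gun1gun5 response minus the WT response was -1.53 ± 0.31 log2 units (limma adjusted p = 0.0307). Both WT_D arrays had sucrose and WT_D replicate 2 also norflurazon, which the other groups lacked, so pretreatment and medium cannot be told apart in the WT response. It read 7.5 and 15 in gun1gun5_FR and 61.7 and 104.0 in gun1gun5_D, against 40.8 and 50.7 in WT_FR and 71.2 and 50.8 in WT_D. Both D arrays of gun1gun5 were above both of its FR arrays, while WT_FR replicate 2 and WT_D replicate 2 were at nearly the same value. The call ended with a pseudocount of 64 (-0.77), with no filter, and without gun1gun5_FR replicate 1 (-1.33), gun1gun5_FR replicate 2 (-1.73), gun1gun5_D replicate 2 (-1.22), WT_FR replicate 2 (-1.41) or WT_D replicate 2, the norflurazon array (-1.34). With a pseudocount of 1 it was -2.40, and the adjusted p ran from 0.0124 to 0.138 over the 16 alternatives.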

How the results depend on the processing

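The members depend on the rule more than on the scaling. The lower and higher sets held 7 and 15 probe sets after quantile normalization, 17 and 20 with a pseudocount of 1, 2 and 10 with 64, 6 and 23 with no filter, and 5 and 9 with a filter at the 60th percentile. They held 58 and 71 with a gap of at least 0.25, and 1 and 6 with a gap of at least 1. Without 1 array the lower set held 6 to 33 probe sets and the higher set 14 to 57, the most without phyA_FR. Without WT_D replicate 2, the norflurazon array, they held 13 and 33, and without gun1gun5_D replicate 2 they held 7 and 24. The filter was held fixed, and leaving out an array can then never narrow a gap, so neither set could lose a member. The low ends of these ranges, 6 and 14, were thus fixed in advance.

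Calls on members in WT, lower then higher set, numbered 0 to 1 and 3 to 4 when 1 array was left out, and the lower set had 0 in a fit of the compared groups alone. In gun1gun5 they numbered 0 to 2 and 2 to 5, and the lower set had 1 with no filter. For gun1gun5 minus WT the higher set had 0 calls with a pseudocount of 64 or with no filter. Leaving out 1 array ended the call on 261065_at in several fits. Without WT_FR replicate 2 (-1.41 for 261065_at) a different member was called, in the opposite direction. For phyA minus gun1gun5 the higher set had 0 to 1. For gun1gun5_FR minus WT_FR they numbered 0 to 3 and 0 to 2. In phyA no alternative gave a call on a member, and a fit of the 2 phyA groups alone could not be made because it leaves no residual degrees of freedom. The 13 calls on single members kept their direction under each alternative run.

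Replicate numbers are shared between groups, but no label says that they mark a common batch, and the deviations of same-numbered arrays correlated at 0.0643 to 0.188 between groups. With the replicate block the calls on higher members were 6 in WT, 5 in gun1gun5 and 2 for gun1gun5_FR minus WT_FR, and the lower set had 1 in WT and 2 in gun1gun5.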
